A study of Homo sapiens with 6 samples.

Results

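The genes described here are 10 genes that build, lengthen and desaturate fatty acids: ACLY, ACACA and FASN of de novo synthesis, SCD, FADS1, FADS2 and FADS3 of desaturation, and ELOVL1, ELOVL5 and ELOVL6 of elongation. They were listed by name, and the list was chosen by a measured value, the fall of FADS2 between control and ARMC5 knockdown cells, the largest among the labelled genes. The values of that contrast are therefore given for the members as a description with no test. The fall of FADS2 was not the largest over all genes tested. The lowest log2 fold change there was -9.155, against -1.80 for FADS2. The 10 genes were among 35810 genes with a transcript in the quantification files, and 9 of them were among the 13737 genes with at least 10 reads in at least 3 libraries, all except ELOVL5. Poly(A) RNA was sequenced from DLD-1 cells, an established human colorectal adenocarcinoma line. The cells of both groups carried SPT5-AID, the transcription elongation factor SPT5 fused to an auxin-inducible degron, and the labels name no auxin for these libraries. One group of 3 libraries received an shRNA against ARMC5 (shARMC5) and the other 3 a non-targeting shRNA (shNT), both delivered by lentivirus and selected with puromycin, and which of the ARMC5 constructs was used is not named, so an effect of the construct and one of ARMC5 loss cannot be told apart. ARMC5 is a substrate adaptor of the ubiquitin ligase CUL3. The comparison sets the transcriptome of cells with partial knockdown of ARMC5 against that of control cells. The study describes its n as biological replicates, whereas the labels do not say whether the 3 libraries of a group came from separate cultures, and the errors measure the spread between these libraries.

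The libraries held 26201112 to 40866478 reads assigned to transcripts. ARMC5 itself, the targeted gene, stood at 10.8, 12.0 and 12.9 CPM (counts per 1000000 reads) in the shARMC5 libraries and at 23.0, 25.9 and 26.7 CPM in the shNT libraries. Its groups did not overlap, with a log2 fold change of -1.09 ± 0.08 (SE; adjusted p = 5.3e-07, edgeR's quasi-likelihood test with Benjamini-Hochberg adjustment, n = 3 against 3). Of 10 colorectal epithelial markers in the files, 7 were at 1 TPM (transcripts per 1000000) or more in every library, whereas CDX1 and CEACAM5 were below 1 TPM in every library. The summed level of the 10 markers was 6862 to 7338 TPM in shNT and 7795 to 8091 TPM in shARMC5 cells, and its part in the values below was not tested. All 6 fibroblast, all 3 endothelial and all 6 hepatocyte and adipocyte markers, ALB and PLIN1 among them, were below 1 TPM in every library, as were 4 of 5 leukocyte markers, all except CD68.

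Fatty acid synthesis starts in the cytosol, where ATP citrate lyase (ACLY) makes acetyl-CoA from citrate, acetyl-CoA carboxylase (ACACA) turns it into malonyl-CoA and fatty acid synthase (FASN) joins the units into palmitate. Membrane-bound elongases of the ELOVL family then lengthen the chain, SCD places a double bond in saturated chains to give oleate and palmitoleate, and the FADS enzymes add double bonds closer to the carboxyl end, which turns the essential dietary fatty acids into long polyunsaturated ones. FADS1, FADS2 and FADS3 lie side by side on the long arm of chromosome 11, where FADS1 and FADS2 point away from each other at their canonical starts and run across each other from the upstream FADS2 start and their annotated transcripts overlap, and many of these genes are known targets of the sterol-regulated factor SREBF1.

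Because most FADS2 reads were assigned to transcripts that begin at an upstream start, the sequence there is shown with those at the starts of its neighbour FADS1 and of SCD, one of the most abundant members. The FADS2 upstream window, chr11:61816154-61816453 on the plus strand, holds the first base of transcript FADS2-201 at 61816256 and that of FADS2-210 at 61816404. The canonical transcript FADS2-202 begins at 61828300. The FADS1 window is chr11:61816954-61817253 on the minus strand and the SCD window chr10:100346983-100347282 on the plus strand. The windows, from 250 bases before to 50 bases after a start, were taken from RefSeq on GRCh38.p14. Capitals mark a CCAAT or GGGCGG match on either strand.
FADS2 upstream start: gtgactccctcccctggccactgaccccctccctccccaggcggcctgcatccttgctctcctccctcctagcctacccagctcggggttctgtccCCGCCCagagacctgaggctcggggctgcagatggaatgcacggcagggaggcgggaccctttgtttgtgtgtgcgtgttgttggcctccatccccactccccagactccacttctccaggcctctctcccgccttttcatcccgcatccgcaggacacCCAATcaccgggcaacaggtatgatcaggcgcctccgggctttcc
FADS1 start: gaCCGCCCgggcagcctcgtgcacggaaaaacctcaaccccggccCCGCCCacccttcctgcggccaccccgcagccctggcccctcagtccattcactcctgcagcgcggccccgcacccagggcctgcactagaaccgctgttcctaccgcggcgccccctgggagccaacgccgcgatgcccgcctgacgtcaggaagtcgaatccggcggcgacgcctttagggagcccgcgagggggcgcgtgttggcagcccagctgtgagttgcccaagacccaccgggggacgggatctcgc
SCD start: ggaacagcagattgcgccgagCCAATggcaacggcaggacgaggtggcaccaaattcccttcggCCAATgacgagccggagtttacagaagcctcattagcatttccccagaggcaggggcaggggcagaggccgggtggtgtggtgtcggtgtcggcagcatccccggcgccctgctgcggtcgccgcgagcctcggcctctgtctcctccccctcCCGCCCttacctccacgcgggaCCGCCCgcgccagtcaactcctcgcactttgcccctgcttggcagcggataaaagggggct
The motifs searched on both strands were the CCAAT box (CCAAT), the GC box (GGGCGG), the E-box (CACGTG) and a sterol response element (TCACNCCAC), and no match overlapped one of another motif in the printed windows. The table held 13 windows of 9 members, and FASN was not among them. CCAAT was in 9 of the 13 windows, against 34.6% of all 35116 windows of 300 bases, and GGGCGG was in 10 of 13, against 45.0% (15786 windows). CACGTG was in 1 of the 13, that of ELOVL5, against 7.26% of all windows, and TCACNCCAC was in no member window, against 1.13% of all windows. The SCD window held 2 CCAAT and 2 GC box matches. The printed FADS2 window held 1 of each, with the CCAAT match just after the first base of FADS2-210, and the other FADS2 window of the table, chr11:61815953-61816252, held no match, while the FADS1 window held 2 GC boxes and no CCAAT. Windows of the same gene overlap in part for ACLY and FADS2, so the 13 are not independent. The member windows ran from 45.3% to 82.3% GC, against a median of 58.7% over all windows. Only those of ELOVL5 and ELOVL6 and the lowest ACACA window were below that median. The part of GC content in the motif shares was not tested.

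In shNT cells the genes covered a wide range of levels, given here in TPM, which corrects for transcript length. SCD (241 ± 9.69 TPM, SD, n = 3) and FASN (231 ± 16.3 TPM) were the highest and their ranges overlapped. ACLY followed at 174 ± 9.27 TPM and ELOVL1, which lengthens saturated and monounsaturated very long chains, at 112 ± 2.74 TPM. ELOVL6, the elongase that carries palmitate to stearate, stood at 39.6 ± 2.37 TPM. FADS3 (30.2 ± 3.47 TPM) and ACACA (27.2 ± 3.42 TPM) came next and their ranges overlapped. FADS2, the first desaturase of the polyunsaturated route, was at 12.4 ± 1.22 TPM, and 43.4% of the tested genes were lower. FADS1, the desaturase that acts later on the same route, was at 0.464 ± 0.0607 TPM. ELOVL5, the elongase of polyunsaturated chains between those desaturation steps, was at 0.0395 ± 0.0414 TPM. SCD, FASN and ACLY were thus the 3 highest, ACACA lay well below them, and FADS2, FADS1 and ELOVL5 were the 3 lowest. Apart from the overlapping pairs SCD and FASN, and FADS3 and ACACA, the libraries of each gene lay apart from those of the next gene in the order. SCD and FASN together made up 53.6% to 55.4% of the summed TPM of the 10 genes in shNT libraries and 51.4% to 52.6% in shARMC5 libraries. The order of the 10 means was the same in shARMC5 cells, where only FADS3 and ACACA overlapped.

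**Figure D1:**
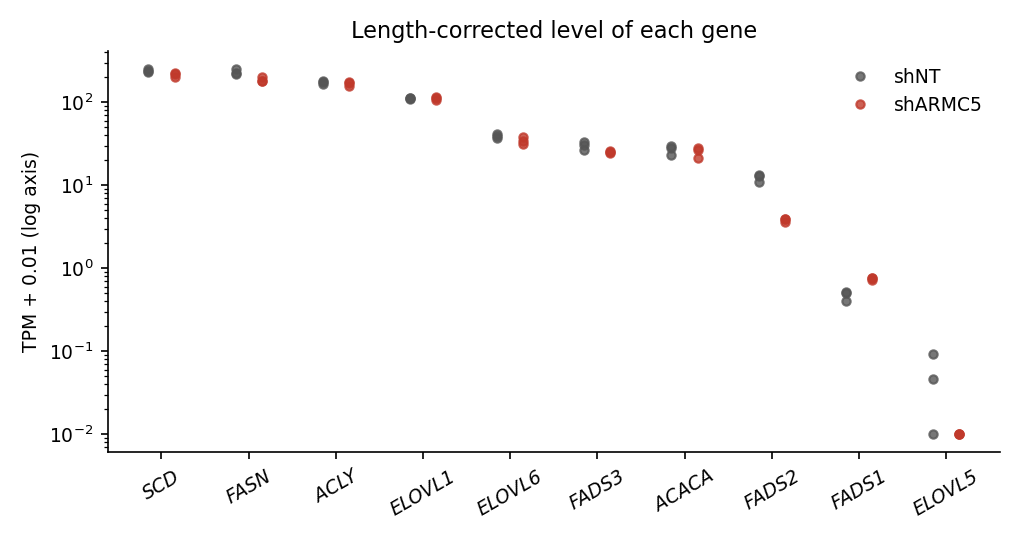
Level of each gene in TPM with 0.01 added, on a log axis, in the 3 shNT (grey) and the 3 shARMC5 (red) libraries. SCD and FASN lead, FADS2 lies at 12.4 TPM in shNT and 3.83 TPM in shARMC5 cells, and FADS1 and ELOVL5 lie below 1 TPM in every library.

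FADS2 (ENSG00000134824.14, chr11:61792980-61867354, plus strand) was measured at 5.58, 6.16 and 6.11 CPM in the shARMC5 libraries and at 21.7, 21.2 and 19.4 CPM in the shNT libraries. Every shARMC5 library thus lay far below every shNT library, from 154 to 243 reads against 543 to 708. The mean went from 20.8 ± 1.21 to 5.95 ± 0.32 CPM (SD, n = 3 each), 71.3% lower, a log2 fold change of -1.80 ± 0.08 (SE). In bulk RNA, fewer cells with the transcript and less of it per cell cannot be told apart. In TPM the means were 12.4 ± 1.22 and 3.83 ± 0.17. Over all genes tested, 3.3% were called lower in shARMC5 cells at an adjusted p under 0.1, and 4.44% higher. FADS2, FASN and SCD were the 3 members among the genes called lower and no member was among those called higher. Since the rule used this contrast, nothing is read from that count.

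By the assignment of reads to transcripts, the lower reading of FADS2 was in those that begin at the upstream start. There are 4 annotated transcripts that begin between 61816256 and 61816546, and reads assigned to them came to 20.3, 18.9 and 18.9 CPM in shNT and to 4.09, 4.76 and 4.12 CPM in shARMC5 libraries. Their mean was 0.223 times that of shNT cells. The 3 transcripts that begin between 61828179 and 61828300 had 0.937, 1.31 and 0.403 CPM in shNT and 1.26, 1.24 and 1.32 CPM in shARMC5 libraries, so these groups overlapped and the values did not fall. This downstream group rested on 11.3 to 48.9 reads a library, and all of them were assigned to FADS2-209. The upstream transcripts held 89.2% to 97.5% of the FADS2 reads in shNT libraries and 67.4% to 77.3% in shARMC5 libraries. The grouping by start was chosen after the transcript values were seen and has no test.

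Within the upstream group, FADS2-201 (ENST00000257261.10) carried most reads, 572, 614 and 411 in shNT and 94.5, 175 and 74.5 in shARMC5 libraries. Taken alone it had a log2 fold change of -2.28 ± 0.22 (SE), but it was not past the threshold in the fit over 49809 transcripts, where 3 (0.00602%) were called lower. FADS2-210 had 93.1, 0 and 118 reads in shNT and 29.5, 12.4 and 29.5 in shARMC5 libraries, so that within shNT one library had none. Salmon splits reads that several transcripts share, and FADS2-201 shares 2793 of its 2964 bases with FADS2-202. The other 171 bases are therefore what sets it apart from the canonical form, and 165 of them lie over an exon of FADS1 on the opposite strand. The library kit does not mark strand, so reads in those overlaps cannot be told apart by gene. The canonical FADS2-202 drew 0 reads in all 6 libraries.

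**Figure D2:**
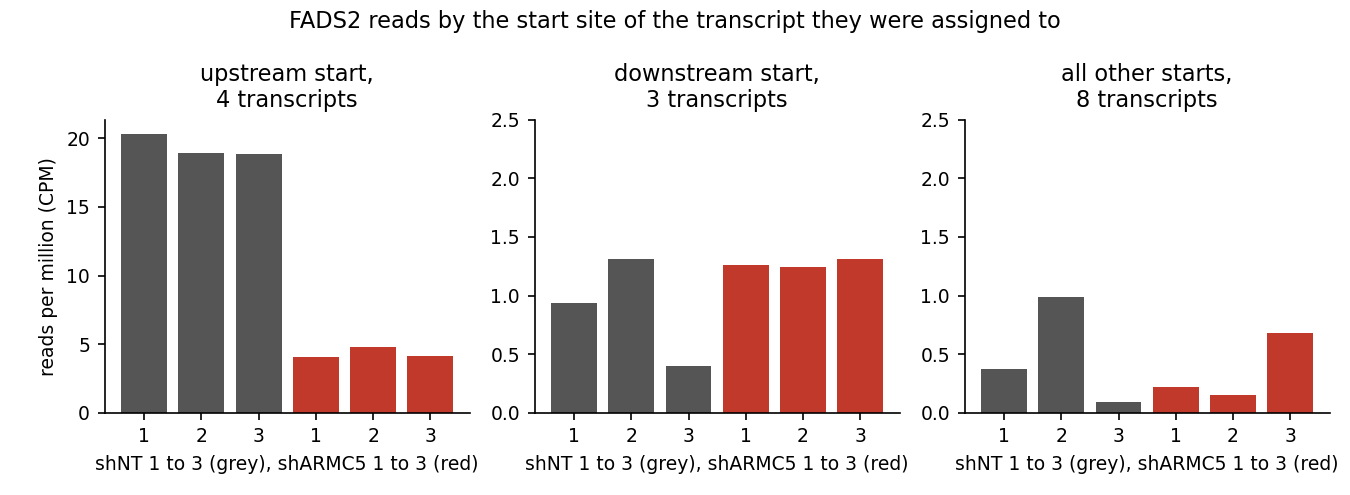
CPM assigned to FADS2 transcripts in each library, summed by the start site of the transcript: upstream (61816256 to 61816546, left), downstream (61828179 to 61828300, middle) and all other starts (right), with the left axis on its own scale. The upstream bars are 18.9 to 20.3 CPM in shNT (grey) and 4.09 to 4.76 CPM in shARMC5 (red) libraries, and the downstream bars overlap between groups.

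FADS1 (ENSG00000149485.19, chr11:61799627-61829318, minus strand), whose canonical start lies 747 bases from that of FADS2-201, did not fall with it. It had 1.49, 2.16 and 2.18 CPM in the shARMC5 and 1.22, 1.36 and 1.07 CPM in the shNT libraries. The shARMC5 libraries were all above the shNT libraries, by little in the lowest, and the log2 fold change was 0.67 ± 0.25 (SE), not called over all genes. It rested on 30 to 85 reads a library, and the canonical FADS1-201, with 142 of its 4364 bases in GENCODE 44 over a FADS2 exon (the files give it 4525 bases), held 72.8% of the FADS1 TPM in shARMC5 and 75.1% in shNT cells. FADS3 (ENSG00000221968.9, chr11:61873519-61892051, minus strand), which acts on a narrower set of substrates, had 28.1, 28.9 and 30.1 CPM in shARMC5 and 27.8, 31.7 and 30.6 CPM in shNT libraries. The groups overlapped, with a log2 fold change of -0.05 ± 0.06 (SE). In TPM FADS3 was 25.2 ± 0.79 in shARMC5 and 30.2 ± 3.47 in shNT cells, and the short transcript FADS3-203 had 11.3, 23.0 and 38.9 reads in shNT and 0 in each shARMC5 library. With transcript length as an offset its log2 fold change was -0.24, also not called. Of the 3 neighbouring FADS genes, FADS2 alone was thus among the genes called, FADS1 lay the other way at a very low level and the groups of FADS3 overlapped.

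SCD (ENSG00000099194.6, chr10:100347233-100364826, plus strand), the main desaturase of saturated chains, is annotated with 1 transcript. It stood at 820, 796 and 766 CPM in shARMC5 and at 883, 875 and 872 CPM in shNT libraries. The groups did not overlap, and the SD was 5.68 CPM in shNT and 26.8 CPM in shARMC5 cells. SCD was 9.47% lower, a log2 fold change of -0.14 ± 0.03 (SE), and it was among the genes called lower under every gene-level alternative run.

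FASN (ENSG00000169710.9, chr17:82078338-82098294, minus strand) had 972, 898 and 866 CPM in shARMC5 and 1134, 1057 and 1045 CPM in shNT libraries. Each shARMC5 library was below each shNT library. Its mean was 15.4% lower, a log2 fold change of -0.24 ± 0.05 (SE). It was among the genes called lower, but not without shARMC5 replicate 2 (log2 fold change -0.23) or without shNT replicate 2 (-0.26). FASN-201, the canonical transcript, held 83.0% of its TPM in shARMC5 and 81.0% in shNT cells, and the short FASN-207 had 78.3, 82.3 and 55.2 reads in shARMC5 against 152, 156 and 106 in shNT libraries.

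ACACA (ENSG00000278540.5, chr17:37084992-37406836, minus strand), the enzyme just before FASN, had 174, 163 and 140 CPM in shARMC5 and 184, 185 and 163 CPM in shNT libraries. The groups overlapped, with a log2 fold change of -0.16 ± 0.10 (SE), not called. It was -0.08 without shARMC5 replicate 3 and -0.09 with transcript length as an offset in edgeR. Only 9 of the 23 annotated ACACA transcripts were found by identifier in the files, whereas every annotated transcript of the other members was found. The files also hold a run of 23 unmatched transcripts, of which 18 have the length of an ACACA transcript, and these drew 1121 to 1823 reads a library. With that run added to ACACA, a step chosen after seeing the data, its levels were 211, 206 and 190 CPM in shARMC5 and 240, 225 and 224 CPM in shNT libraries. The groups then no longer overlapped, the log2 fold change was -0.18 ± 0.04 (SE), and ACACA was among the genes called lower. With the matched transcripts alone it was called with the replicate block (-0.16 ± 0.03), so its call depended on both choices. Of the matched transcripts, ACACA-231 held 78.0% of the ACACA TPM in shARMC5 and 79.1% in shNT cells.

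ACLY (ENSG00000131473.17, chr17:41866917-41930542, minus strand) had 503, 495 and 472 CPM in shARMC5 and 506, 502 and 490 CPM in shNT libraries. The groups overlapped and the log2 fold change was -0.03 ± 0.03 (SE). Its TPM was spread over several transcripts, with ACLY-201 at 53.5% in shARMC5 and 53.8% in shNT cells, ACLY-207 at 17.5% and 19.5%, and ACLY-203 at 16.4% and 14.2%.

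ELOVL6 (ENSG00000170522.10, chr4:110045846-110199199, minus strand) had 63.5, 64.4 and 64.0 CPM in shARMC5 and 69.5, 70.0 and 66.0 CPM in shNT libraries. The shARMC5 libraries were all lower, by 6.66% in the mean, and the log2 fold change was -0.10 ± 0.04 (SE), not called, and -0.18 with transcript length as an offset in edgeR, also not called. ELOVL1 (ENSG00000066322.15, chr1:43363398-43368074, minus strand) had 101, 97.4 and 97.7 CPM in shARMC5 and 97.1, 100.2 and 99.2 CPM in shNT libraries. Its groups overlapped, with a log2 fold change of -0.0033 ± 0.033 (SE) whose sign depended on the setting. ELOVL1-201 held 48.2% of the ELOVL1 TPM in shARMC5 and 51.1% in shNT cells.

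ELOVL5 (ENSG00000012660.14, chr6:53267398-53349179, minus strand) was at 0 reads in the 3 shARMC5 libraries and at 1, 2 and 0 reads in the shNT libraries, although all 7 of its annotated transcripts were in the files. A count of 0 allows up to 3 reads, which corresponds to 0.0761 to 0.119 CPM in the shARMC5 libraries, by counting error only, and no fold change is given. FBXO9 and GCLC, the nearest tested genes on either side, looked at after its value was seen, had 35.1 ± 1.18 and 72.1 ± 2.65 CPM in shNT cells (SD, n = 3). Both neighbours were thus read in these cells while ELOVL5 was at or near 0 in both groups. Some other listed genes were also at 0 reads in every library, among them ELOVL4, THRSP, FABP6, RXRB and SLC27A3. MBOAT7 was at 0 in 1 library with up to 903 reads in the others. Whether the cells lack ELOVL5 or its reads were lost was not tested.

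**Figure D3:**
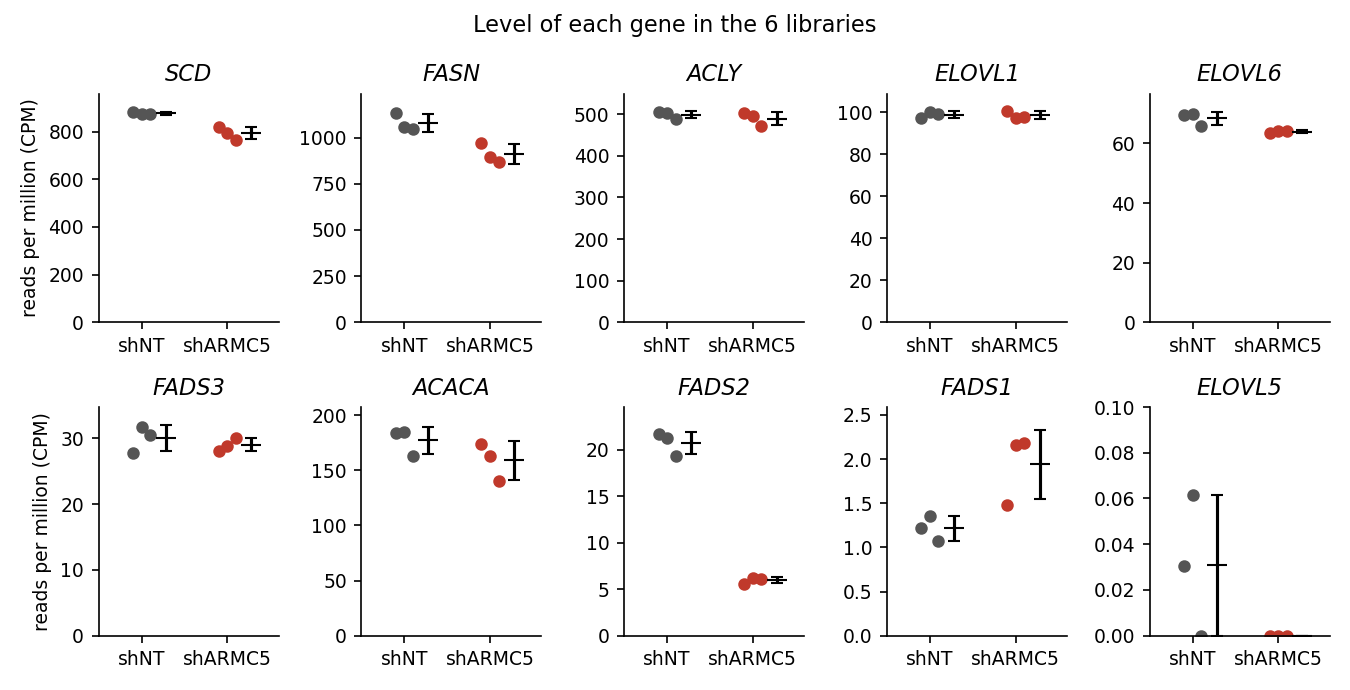
CPM of each of the 10 genes in the 3 shNT (grey) and 3 shARMC5 (red) libraries, each panel from 0 on its own linear axis, with black bars for the mean ± SD. FADS2 falls from 20.8 to 5.95 CPM, SCD, FASN and ELOVL6 are lower by less with no overlap, and FADS1 alone is higher with no overlap.

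Among the 9 tested members 8 had a negative log2 fold change and the median was -0.10, against 6942 of 13737 negative and a median of -0.0014 over all genes tested. The 8 include FADS2, whose value chose the list, and ELOVL1, whose sign depended on the setting, so nothing is read from that count. In 4 members (FADS2, SCD, FASN and ELOVL6) every shARMC5 library was below every shNT library, which held for 10.9% of all genes tested. In 1 (FADS1) every one was above, which held for 12.5%. The rule used this contrast, so nothing is read from these counts either.

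**Figure D4:**
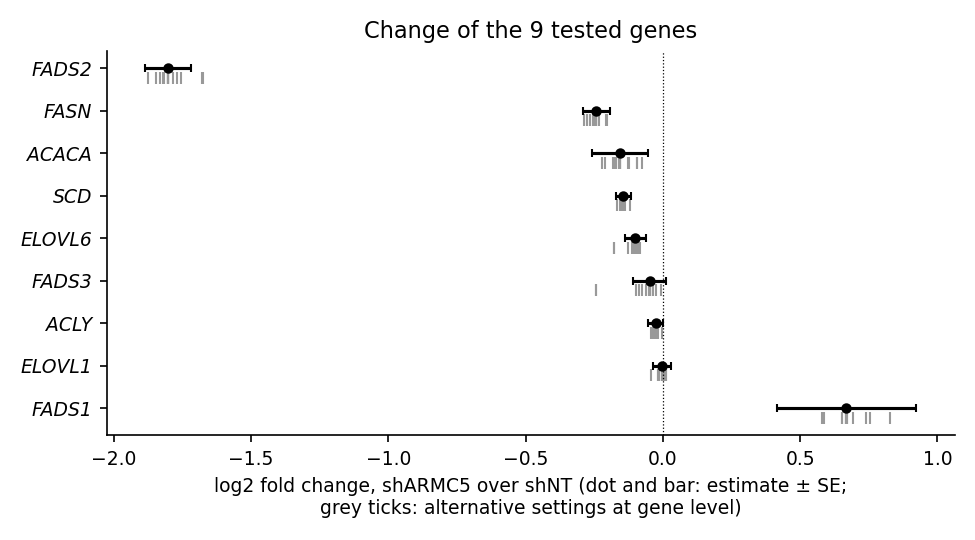
The log2 fold change of the 9 tested genes, shARMC5 over shNT, with bars for ± SE and grey ticks for the values under alternative settings at gene level. FADS2 lies at -1.80, FADS1 at 0.67 and the other 7 between -0.24 and 0.

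The counts of called genes in the lists that follow stand beside 3.3% of all genes called lower and 4.44% called higher, and no list was tested against that background. Of the list genes named below as called, MLXIP, TM7SF2 and FTH1 stayed called with transcript length as an offset in edgeR and the others did not. Of 37 listed regulators of fatty acid synthesis 34 were tested and 2 were called, both lower, with a median log2 fold change of -0.03. Those called were MLXIP, the glucose-sensing transcription factor MondoA (log2 fold change -0.21 ± 0.04 SE, adjusted p = 0.0026, edgeR), and SREBF2, the sterol-regulated factor of cholesterol genes (-0.13 ± 0.03, adjusted p = 0.0059). With that offset SREBF2 had an adjusted p of 0.168 (edgeR). SREBF1, the factor best known for FASN and SCD, was at 136 ± 3.05 CPM in shARMC5 and 141 ± 2.23 CPM in shNT cells (log2 fold change -0.05 ± 0.03 SE, adjusted p = 0.381, edgeR). Its escort SCAP (adjusted p = 0.986, edgeR), the retention factor INSIG1 (0.611) and the oxysterol receptor NR1H2 (0.724) were also not called.

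Next came the enzymes that work beside the 10 genes. Of 16 tested genes of fatty acid supply and synthesis 2 were called lower, ACACB, the carboxylase at mitochondria (-0.27 ± 0.08 SE, adjusted p = 0.0526, edgeR), and IDH1, which supplies cytosolic NADPH (-0.09 ± 0.03, adjusted p = 0.0509). With transcript length as an offset ACACB was at -0.05 (adjusted p = 0.968, edgeR), and DESeq2 without an offset did not call it (adjusted p = 0.125). Neither gene held when shARMC5 replicate 2 or 3, or shNT replicate 1 or 3, was left out, where adjusted p lay between 0.104 and 0.202. Of the 6 tested enzymes of the elongation cycle besides the members, such as HSD17B12 and TECR, log2 fold changes ran from -0.0035 to 0.11 and 0 were called by edgeR or DESeq2, with 0 at an unadjusted p under 0.05. The 12 tested desaturases and electron carriers ran from -0.05 to 0.47 with a median of 0.07, and 0 were called by edgeR or DESeq2, with 3 at an unadjusted p under 0.05, CYB5R3, CYB5A and DEGS2. CYB5A, the cytochrome that feeds electrons to desaturases, was at 90.7 CPM in shARMC5 and 84.2 CPM in shNT cells (adjusted p = 0.172, edgeR), with every shARMC5 library above every shNT library. Of 23 tested acyl-CoA synthetases and binding proteins 1 was called, SLC27A2, a very long chain synthetase, which was higher (0.13 ± 0.04 SE, adjusted p = 0.0365, edgeR). It was not called without shARMC5 replicate 1 (adjusted p = 0.109) or shNT replicate 1 (0.150).

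The following lists hold genes that use or burn fatty acids. Of 22 tested acyltransferases 2 were called higher, GPAT3, which starts glycerolipid synthesis (0.36 ± 0.07 SE, adjusted p = 0.0067, edgeR), and SOAT1, which makes cholesteryl esters (0.17 ± 0.05, adjusted p = 0.0545). With the length offset GPAT3 was at 0.33 (adjusted p = 0.216 in edgeR and 0.115 in DESeq2). DESeq2 without an offset did not call SOAT1 (adjusted p = 0.115), and SOAT1 lost its edgeR call without shARMC5 replicate 2 or 3 or shNT replicate 1 or 2 (adjusted p = 0.112 to 0.163). Of 34 tested oxidation enzymes 2 were called lower, CPT1A, the carnitine transferase of mitochondrial entry (-0.15 ± 0.04 SE, adjusted p = 0.0533, edgeR), and ACAA2, a thiolase (-0.11 ± 0.03, adjusted p = 0.055). DESeq2 without an offset did not call CPT1A (adjusted p = 0.125). In edgeR CPT1A was lost without any one of the shARMC5 replicates or shNT replicate 1 or 3 (adjusted p = 0.122 to 0.219), and ACAA2 without shARMC5 replicate 1 or 2 or shNT replicate 1 or 3 (0.143 to 0.196).

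Cholesterol synthesis, the sister pathway under sterol control, had 23 tested genes of which 4 were called lower, with a median of -0.03. The sterol reductase TM7SF2 was at -0.28 ± 0.05 (SE, adjusted p = 0.0026, edgeR) and squalene synthase FDFT1 at -0.15 ± 0.03 (adjusted p = 0.0072). Squalene epoxidase SQLE (-0.10 ± 0.03, adjusted p = 0.0433, edgeR) was lost without shARMC5 replicate 2 or shNT replicate 1 or 3 (0.127 to 0.165), and the thiolase ACAT2 (-0.09 ± 0.03, 0.0966) without shARMC5 replicate 1 or 2 or any shNT replicate (0.133 to 0.249) and with DESeq2 (0.131).

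**Figure D5:**
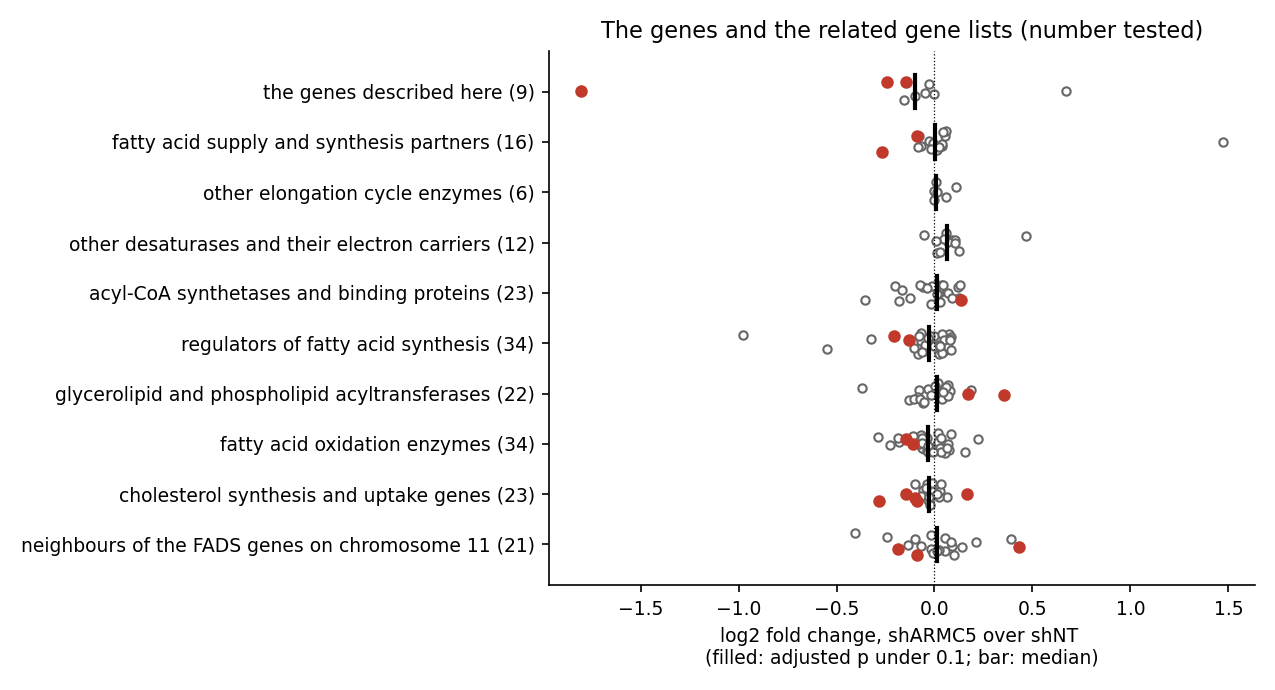
The log2 fold change, shARMC5 over shNT, of each tested gene, by list, with the number tested in parentheses. Filled points passed an adjusted p under 0.1 over all genes, bars are medians, and FADS2 at -1.80 is the leftmost point.

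On chromosome 11 the neighbours of the FADS genes had log2 fold changes from -0.41 to 0.43. Of 21 tested neighbours 2 were called lower and 1 higher, with a median of 0.01. The genes closest to the cluster were not called: MYRF (0.21 ± 0.30 SE, adjusted p = 0.777, edgeR), TMEM258 (0.05 ± 0.06, 0.705), FEN1 (0.08 ± 0.03, 0.137) and RAB3IL1 (0.14 ± 0.11, 0.572). Those called were the synaptotagmin SYT7 (-0.18 ± 0.05, adjusted p = 0.0605, edgeR), the ferritin heavy chain FTH1 (-0.09 ± 0.02, 0.0409) and the asparaginase ASRGL1 (0.43 ± 0.09, 0.0107), which with the length offset was at 0.36 (0.395). SYT7 lost its call without shARMC5 replicate 2 or shNT replicate 1 or 3 (0.171 to 0.269), and FTH1, which has many processed copies that can share reads, without shARMC5 replicate 1 or 2 or shNT replicate 1 (0.115 to 0.153).

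The genes whose profile over the 6 libraries was most like that of FADS2 were found among 12113 other tested genes whose mean reached 1 CPM, by the root mean square difference of log2(CPM + 0.5) after the shNT mean was taken off. They were EPB41L4A (difference 0.17), FAM98B (0.37), VIL1 (0.37), RGPD5 (0.42) and ARMC5 (0.48), with Pearson correlations over the 6 libraries of 0.99, 0.996, 0.99, 0.89 and 0.98, which the split between the groups shapes. VIL1, one of the epithelial markers, went from 11.1 ± 0.65 CPM in shNT to 4.54 ± 0.42 CPM in shARMC5 cells (SD, n = 3). EPB41L4A went from 2.79 ± 0.44 to 0.398 ± 0.134 CPM, a log2 fold change of -2.78. With transcript length as an offset it was -1.23 and no longer called (adjusted p = 0.288, edgeR). EPB41L4A had only 8, 21 and 10 reads in the shARMC5 libraries. At that level the added 0.5 CPM shrinks its change in the likeness measure. FAM98B went from 91.95 ± 2.10 to 39.5 ± 0.81 CPM. RGPD5 belongs to a family of near-identical copies among which reads can be split, and its shARMC5 libraries ranged from 6.01 to 16.1 CPM. It was not called (log2 fold change -1.52 ± 0.45 SE, adjusted p = 0.196, edgeR), was at -0.64 with the length offset, and was called without shARMC5 replicate 2 (-2.14, adjusted p = 0.000583) and by DESeq2 (-1.56, 0.0221). No other member had a log2 fold change farther from 0 than the 0.67 of FADS1.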

How the data were processed

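Poly(A) RNA from 3 shARMC5 and 3 shNT libraries of SPT5-AID DLD-1 cells was analysed. Per the labels, the authors' pipeline used cutadapt 4.2 for trimming and Salmon 1.9.0 for transcript quantification (build hg38). The deposited files give estimated counts and TPM per transcript. All files hold 177456 transcripts, and 165533 were matched to GENCODE 44 by identifier without version, giving 35810 genes, while 2.96% to 3.04% of reads fell on the others. The estimated counts of a gene's transcripts were added up and rounded to whole numbers. A gene entered the test if 3 or more libraries had 10 counts or more. It was tested with edgeR 4.0.16 (R 4.3.3; TMM, quasi-likelihood), shARMC5 against shNT, with Benjamini-Hochberg adjustment and an adjusted p under 0.1 as the threshold. CPM are counts per 1000000 reads after TMM scaling. DESeq2 1.42.0, other scalings, filters, a length offset, a replicate block and leaving out each library were alternatives. Intervals and floors cover counting error only. The code was tested on simulated data. Replicates differed by more than sampling noise (mean chi-square per gene 5.7 to 24.3).

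The members and lists were chosen with earlier results of these data known. Named were all members, ARMC5, 5 regulators, 5 neighbours, the 5 genes most like FADS2, transcripts with 5% or more of a member's TPM, and of each list at most 4 called genes a direction whose mean was 1 CPM or more. Some items are not reported here.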

Additional observations from a re-analysis of the deposited data

How the results depend on the processing

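FADS2 and SCD were among the genes called lower, with the same sign, in every alternative run at gene level. The rule used this contrast and the alternatives reuse the same libraries, so the repeated calls are a description and no support. Members called lower numbered 2 to 4 and members called higher 0 under all of them: FASN dropped out without shARMC5 replicate 2 (log2 fold change -0.23) or shNT replicate 2 (-0.26), and ACACA came in with the added run of transcripts and with the replicate block, under which FEN1 was called higher (0.08, adjusted p = 0.0569, edgeR). The genes called over all genes, 1064 in the reported fit, came to 235 with edgeR and a transcript length offset, 568 with DESeq2 and that offset, 676 at an adjusted p under 0.05, 1766 with the replicate block and 536 to 1085 when single libraries were left out (536 without shNT replicate 1, 600 without shARMC5 replicate 2 and 694 without shNT replicate 3), and the causes were not tested. The replicate numbers were not taken as pairs, since the deviations of same-numbered libraries correlated at -0.022, 0.015 and 0.11 and not every library correlated best with its own number. The sign of ELOVL1 turned with the length offset (0.0113 in edgeR, 0.0108 in DESeq2) and among single libraries left out (-0.018 to 0.0067), as did SCAP (-0.029 to 0.017), TMEM258 (-0.00495 to 0.098) and MYRF (-0.0058 to 0.38). Single transcripts with the opposite sign to their gene were FADS2-209 (0.52), ACACA-235 (0.38), ACLY-203 (0.20), ELOVL1-212 (0.28) and ELOVL1-202 (0.23), none of them called. By Pearson correlation, 0 of the 5 genes most like FADS2 were among the 5 named. Library size alone moved the lower share of all calls from 42.7% to 51.9%. FADS1 rests on 30 to 85 reads a library.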
